A study of Sus scrofa with 6 samples.

Results

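The KCNQ1 domain is a run of genes on pig chromosome 2 of which several are imprinted in mouse or human, so that a given gene is read mainly from the maternal or mainly from the paternal copy. Its 10 genes *ASCL2*, *CD81*, *TSSC4*, *KCNQ1*, *LOC110259223*, *CDKN1C*, *SLC22A18*, *PHLDA2*, *NAP1L4* and *OSBPL5* are described here, out of 30002 genes and unplaced features in the deposited tables. They lie within 703488 bases, at chr2:1558459-2261946 of Sscrofa11.1. The genes were chosen by their position and selected on levels that were already known in these same embryos, so their differences between groups are given as a description, with no p-value, and counts of those past a threshold support nothing. Of the 10 genes, 9 passed the filter on low counts, and *ASCL2* did not.

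RNA was sequenced from whole pig embryos at embryonic day 21, all labelled as Landrace x Yorkshire x Duroc (LYD). The 3 control (CN) embryos were fertilized and untreated, and came, by the study's methods, from naturally mated Landrace x Yorkshire gilts and boars of a breed not given in the sources used here. The deposited CN tables carry the letters AI in their names, which no source explains, so natural mating rests on the methods alone. The 3 parthenogenetic (PA) embryos came from oocytes of LYD ovaries matured in vitro, activated by electric pulses and placed in the oviducts of surrogate gilts, and carry maternal genomes only. The comparison asks which genes change when no paternal genome is present. In vitro maturation, activation and transfer were used for the PA embryos only, and the mothers' cross differed between the groups, so these effects and that of parthenogenesis cannot be told apart. By the methods each group came from fewer gilts than it has embryos, so some embryos of each group shared a gilt. Which ones did is not given in the sources used here, and the p-values below measure only the spread between these samples. Whole embryos mix many cell types, so that fewer cells of a type and less RNA per cell cannot be told apart.

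In mouse and human, *CDKN1C*, *PHLDA2* and *SLC22A18* are expressed mainly from the maternal copy. In those species a long non-coding RNA, read from the paternal copy, starts inside *KCNQ1* on the opposite strand and silences neighbouring genes on the same chromosome. A parthenogenetic embryo has 2 maternal copies of such a domain and no paternal one.

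*LOC110259223* is a long non-coding RNA gene on the minus strand at chr2:1794543-1823381. It lies entirely inside intron 10 of *KCNQ1*, which has 16 exons on the plus strand in XM_021082619.1, and it shares 0 exon bases with *KCNQ1*. The annotation gives it 2 transcripts of 2 exons each, which share a 3′ exon of 23485 bases and differ in their first exon. XR_002341394.1 starts at position 1823381 and has a first exon of 1365 bases, and XR_002341393.1 starts at position 1820268 and has a first exon of 2062 bases.

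The bases around both annotated starts of *LOC110259223* are printed because it is the domain gene with the lowest PA level relative to CN, together with the bases before the start of *CDKN1C*, the cell cycle inhibitor of the domain. They were read from Sscrofa11.1 (RefSeq) on the minus strand, 5′ to 3′, with CpG dinucleotides in capitals. The *LOC110259223* windows hold 250 bases before and 50 after the start, at chr2:1823332-1823631 and chr2:1820219-1820518. For *CDKN1C* only the 250 bases before the start are given, at chr2:2022093-2022342.
LOC110259223, start of XR_002341394.1: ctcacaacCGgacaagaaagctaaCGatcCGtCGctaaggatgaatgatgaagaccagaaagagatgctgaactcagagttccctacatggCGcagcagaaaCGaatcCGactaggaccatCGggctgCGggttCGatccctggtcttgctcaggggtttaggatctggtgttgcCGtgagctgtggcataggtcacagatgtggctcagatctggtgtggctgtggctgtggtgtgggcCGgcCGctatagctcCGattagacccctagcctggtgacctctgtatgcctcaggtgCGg
LOC110259223, start of XR_002341393.1: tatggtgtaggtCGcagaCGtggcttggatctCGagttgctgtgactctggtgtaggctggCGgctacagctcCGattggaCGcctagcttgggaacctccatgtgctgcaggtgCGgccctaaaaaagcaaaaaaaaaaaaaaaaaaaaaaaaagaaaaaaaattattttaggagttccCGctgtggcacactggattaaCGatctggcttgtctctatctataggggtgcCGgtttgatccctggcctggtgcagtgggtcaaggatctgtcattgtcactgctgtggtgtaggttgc
CDKN1C, before its start: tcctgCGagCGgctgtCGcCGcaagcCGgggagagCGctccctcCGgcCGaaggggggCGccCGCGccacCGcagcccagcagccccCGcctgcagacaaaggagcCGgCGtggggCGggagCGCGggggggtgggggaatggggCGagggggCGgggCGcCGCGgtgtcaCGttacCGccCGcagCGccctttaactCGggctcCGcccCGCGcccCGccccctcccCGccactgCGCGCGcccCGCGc

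These windows differed in CpG content. The upstream-most start of *LOC110259223* had 15 CpG in 300 bases, more than 59.4% of the 2671 windows of that length around gene starts on chromosome 2, whose median was 10. Its other start had 10. The same window of *CDKN1C* had 45 CpG, more than 96.9% of all windows. Soft-masked bases, which the reference marks as repeats, made up 72.0% of the first *LOC110259223* window and 98.3% of the second, against 28.8% of the *CDKN1C* bases printed.

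Short promoter motifs were searched on both strands. The motif CCAAT was found in 37.1% of all 2671 windows, TATAAA in 14.2% and GGGCGG in 39.0%. The upstream-most start of *LOC110259223* held none of them and the other start held 1 CCAAT. The 300-base window of *CDKN1C* held 6 GGGCGG and 1 CCAAT. Such a match is a run of letters and not a shown binding site.

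CpG content was also counted in bins of 500 bases around the upstream-most start of *LOC110259223*. Within 25 kb on either side the densest bin had 55 CpG and began 23.0 kb upstream, and the bin that holds the first bases downstream of the start had 16. Over all 627 bins of *KCNQ1* the median was 21 CpG. The densest, with 72, lay upstream of *LOC110259223* and began at chr2:1859323, 35.9 kb from the same start. No annotated start of *LOC110259223* fell in a bin of that density.

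**Figure D1:**
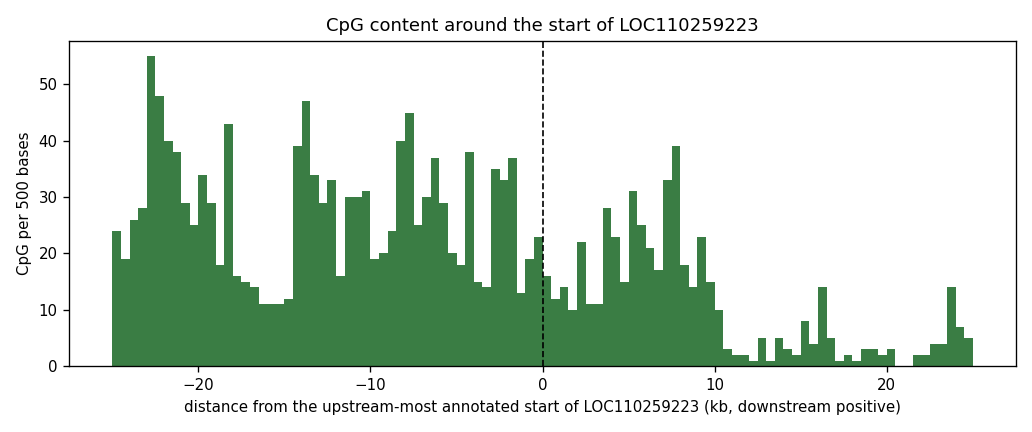
CpG dinucleotides per 500 bases (bars) by distance in kb from the upstream-most annotated start of LOC110259223 (dashed line), with the direction of its transcription positive. Bins upstream of the start reach 55 CpG, and the bin just downstream of it holds 16.

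The tables hold estimated counts, the reads that the quantifier assigned to each transcript, and TPM, the same reads divided by transcript length and scaled to a common sum. Counts of all transcripts of a gene were summed. CN embryos held 3100284 to 3276414 counts and PA embryos 3360478 to 3573406, of which 82.8% to 92.7% fell in annotated chromosome 2 genes and most of the rest in transcripts without a gene in the annotation. The tables hold almost no counts of other chromosomes, so these totals are not the depth of the libraries. TPM is scaled over these counts alone, so its values are not levels in the whole transcriptome. The study's own TPM of *IGF2* and *MRPL23* in these embryos are far lower. In 1652 genes tested with edgeR's quasi-likelihood test, 108 had a Benjamini-Hochberg adjusted p below 0.05. The antisense and the unspliced sense RNA of one place could not be separated, because the kit used does not mark strand.

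Among the domain genes, *LOC110259223* was almost absent from PA embryos and *CDKN1C*, *PHLDA2* and *SLC22A18* had higher group means in PA than in CN. *KCNQ1*, *CD81*, *TSSC4* and *NAP1L4* had similar levels in both groups, and *OSBPL5* lay between. Of the 9 genes in the fit, 2 were past the threshold on adjusted p, *CDKN1C* higher and *LOC110259223* lower in PA, where 6.54% of all genes tested were. *CDKN1C* was not past it without CN2 or without CN3, with log2 fold changes of 0.72 and 0.75. *LOC110259223* passed the filter on low counts through its CN embryos only. With a log2 fold change beyond 1 as well, 1 passed, *LOC110259223*, where 2.91% of all genes did. The rule used this comparison, so nothing is read from these counts. The median log2 fold change (PA against CN) was 0.11 over the 9 genes and 0.02 over all 1652.

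*LOC110259223* had 417, 647 and 884 estimated counts in CN1, CN2 and CN3, and 1, 2 and 6 in PA1, PA2 and PA3. Every PA embryo was far below every CN embryo, and CN3 had the most. Its level in TPM was 7.87, 14.4 and 17.9 in CN and 0.018, 0.0376 and 0.119 in PA. The fitted log2 fold change was −7.74 with a standard error of 0.45, and −8.65 without PA3, which held 6 of the 9 PA counts.

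Over each group, 9 counts in PA stood against 1948 in CN. Scaled by library totals, the CN to PA ratio was 235, with an exact 95% interval of 123 to 514 that covers counting error only. The PA level was 0.426% of the CN level. PA1 and PA2 lay below 3 counts, the limit that a count of 0 allows, and PA3 lay above it.

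Within CN the spread of this gene was wide. Normalised CPM are counts scaled to library size, composition and the gene's transcript length in each embryo. The coefficient of variation of *LOC110259223* on this scale was 33.7%, where that of *KCNQ1*, the gene that surrounds it, was 12.0%. Both annotated transcripts were assigned reads in each CN embryo. XR_002341394.1 took 39.9%, 47.9% and 50.1% of the TPM of the gene in CN1, CN2 and CN3, so that neither transcript led in all 3 embryos. In PA the 9 counts are too few to divide.

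Reads of *LOC110259223* can be compared with those of its host gene in the same embryo. Per 100 counts of *KCNQ1* there were 307, 378 and 497 counts of *LOC110259223* in CN, and 0.549, 1.16 and 3.26 in PA. The mean was 394 ± 96.0 (SD, n = 3) in CN and 1.66 ± 1.42 in PA. The contribution of unspliced *KCNQ1* RNA to *LOC110259223* was not tested. The *KCNQ1* counts themselves did not separate the groups.

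Repeats make up 27.1% of the exon bases of *LOC110259223*, where the median over 2673 chromosome 2 genes was 10.4%, and 92.3% of these genes had a lower share. In *KCNQ1* they make up 5.30%. How the quantifier placed reads from repeats was not tested.

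*KCNQ1*, a voltage-gated potassium channel subunit that carries a repolarizing current in the heart, spans chr2:1675323-1989110. It had 136, 171 and 178 counts in CN and 182, 172 and 184 in PA. The groups overlapped, and CN1 was the lowest of the 6 embryos. In TPM the CN embryos had 21.5, 31.6 and 29.9 and the PA embryos 27.2, 27.5 and 30.0, also with overlap. The log2 fold change was 0.11 ± 0.15 (SE). Transcript XM_021082619.1 held 98.6% ± 0.51 of the TPM of the gene in CN and 99.7% ± 0.52 in PA (SD, n = 3).

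*CDKN1C*, which encodes the cyclin-dependent kinase inhibitor p57 that holds back the cell cycle, lies at chr2:2019391-2022092. It had 2605, 2405 and 2554 counts in CN and 4324, 4975 and 3760 in PA. Every PA embryo was above every CN embryo, and PA2 was the highest. In TPM, CN embryos had 725, 779 and 757, and PA embryos 1128, 1387 and 1075. The log2 fold change was 0.74 ± 0.12 (SE), a fold of 1.67.

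CN embryos were close to each other for *CDKN1C*, with a coefficient of variation of 5.05% in normalised CPM, and PA embryos were wider at 16.7%. Per 100 counts of *NAP1L4*, a nearby gene with similar levels in both groups, CN embryos had 44.5, 44.3 and 43.9 counts of *CDKN1C* and PA embryos had 69.0, 86.9 and 60.0. *NAP1L4* was taken because its levels were similar in both groups, so this ratio restates the *CDKN1C* difference within single embryos.

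*PHLDA2*, a small pleckstrin-homology domain protein known as a brake on placental growth in mouse, lies at chr2:2057679-2058675. It had 108, 74 and 81 counts in CN and 139, 183 and 112 in PA. In counts and in TPM every PA embryo was above every CN embryo, with TPM values of 90.3, 70.7 and 71.3 in CN and 109, 152 and 95.0 in PA. In normalised CPM the groups overlapped, since CN1 had 34.2 and PA3 had 31.5. The log2 fold change was 0.67 ± 0.26 (SE). Per 100 counts of *NAP1L4* the CN embryos had 1.85, 1.36 and 1.39, and the PA embryos 2.22, 3.20 and 1.79, so CN1 lay above PA3 on this scale too.

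*SLC22A18*, a membrane transporter of the organic cation transporter family, lies at chr2:2032370-2055756. It had 287, 309 and 310 counts in CN and 735, 422 and 303 in PA. The 3 CN embryos were alike, while PA1 was well above the rest and PA3 lay inside the CN range in counts. In normalised CPM, PA3 had 84.4, below the 89.9 to 96.7 of CN. Its log2 fold change was 0.61 ± 0.30 (SE), and 0.17 without PA1. Without PA3 it was 0.89.

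The coefficient of variation of *SLC22A18* in normalised CPM was 3.86% in CN and 48.3% in PA. PA1 also had the highest level of the early liver markers on chromosome 2, with 7910 counts of *C3* and 11597 of *F2*, where the other 5 embryos had at most 3464 and 9823. Over the early liver list the summed CPM was 5969.5 in PA1, 2755 and 2338 in the other PA embryos and 3217 to 3958 in CN. The markers *ALB* and *AFP* are on another chromosome and listed at 0 in all embryos, as are nearly all genes outside chromosome 2. The part of liver tissue in the *SLC22A18* value of PA1 was not tested.

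The annotation lists 17 transcripts of *SLC22A18*, of which 8 are coding. The coding ones held 81.6%, 85.5% and 91.7% of the counts in CN and 86.5%, 85.1% and 86.4% in PA. The leading transcript differed between embryos. In CN1 and CN2 it was XM_021082629.1, with 53.5% and 47.0% of the TPM of the gene, and in CN3 it was XM_021082624.1 with 28.2%. In PA1 and PA3 it was XM_021082625.1, with 34.1% and 25.9%, and in PA2 it was XM_021082630.1 with 18.4%.

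These differences can be followed in the transcript that led in most CN and the one that led in most PA embryos. XM_021082629.1 had 130.0, 125 and 76.4 counts in CN and 0, 59.4 and 28.9 in PA. XM_021082625.1 had 26.8, 62.2 and 46.7 counts in CN and 226, 67.7 and 71.6 in PA. The pair was picked for leading in one group each, so nothing is read from the way their values divide the groups. Transcripts of this gene share most of their exons, so their division among transcripts carries an uncertainty that the deposited values do not give.

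**Figure D2:**
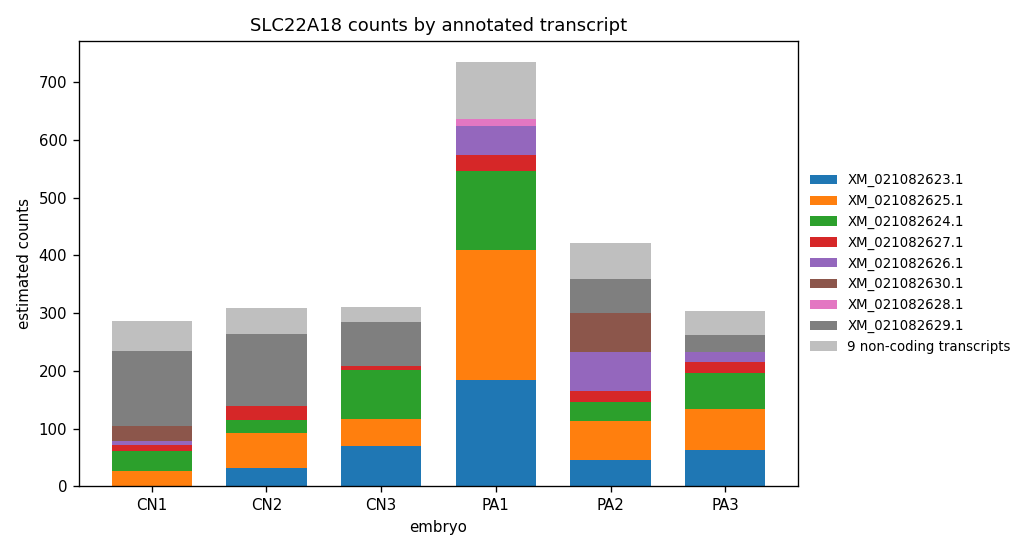
Estimated counts of SLC22A18 in each of the 6 embryos, stacked by the 8 coding transcripts and the sum of the 9 non-coding ones. PA1 reaches 735 counts, and the other embryos lie between 287 and 422.

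*OSBPL5*, an oxysterol-binding protein that moves lipids between membranes, lies at chr2:2201615-2261946 and is the last gene of the domain. It had 642, 822 and 808 counts in CN and 916, 1016 and 962 in PA. All PA counts were above all CN counts, as were the normalised CPM. In TPM, CN embryos had 92.5, 139 and 124 and PA embryos 124, 147 and 143, and the groups overlapped. The log2 fold change was 0.30 ± 0.11 (SE). Transcript XM_021082639.1 held 99.3% ± 1.23 of the TPM in CN (SD, n = 3) and all of it in PA.

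*NAP1L4*, a histone chaperone, had 5848, 5430 and 5819 counts in CN and 6271, 5727 and 6265 in PA. In normalised CPM the groups overlapped, at 1682 to 1834 in CN and 1717 to 1917 in PA. The log2 fold change was 0.04 ± 0.08 (SE), and −0.02 when library totals were used for scaling. Of its 7 transcripts, XM_013993988.2 led in every embryo, with 76.2% ± 3.84 of the TPM in CN and 76.9% ± 3.50 in PA (SD, n = 3).

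*CD81*, a tetraspanin of the cell surface, had 7645, 7170 and 7768 counts in CN and 8069, 7988 and 7793 in PA. In TPM the CN embryos had 4447, 4723 and 4669 and the PA embryos 4397, 4614 and 4600.0, and the groups overlapped. The log2 fold change was 0.04 ± 0.08 (SE), and −0.02 with library totals. Its coding transcript NM_001078679.1 held 75.4% ± 0.86 of the TPM in CN and 76.2% ± 0.19 in PA (SD, n = 3). The rest was assigned to the non-coding transcript XR_002341314.1, which is longer. As a share of estimated counts the coding transcript held 47.9% in CN and 48.8% in PA, so the non-coding one then led.

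*TSSC4*, annotated in this release with a single non-coding transcript, had 920, 891 and 913 counts in CN and 997, 914 and 991 in PA. Its log2 fold change was 0.04 ± 0.08 (SE), and −0.02 with library totals. For *CD81*, *TSSC4* and *NAP1L4* the difference between groups was thus smaller than its standard error and its sign depended on the scaling.

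*ASCL2*, a basic helix-loop-helix factor needed for trophoblast in mouse, had 4, 4 and 0 counts in CN and 3, 7 and 4 in PA. The embryos had been separated from the placenta, and at this depth a difference was not detectable. The trophoblast markers on chromosome 2 were low as well, with 23 to 44 counts of *ELF5* and 1 count of *PAG6*, in PA2.

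In normalised CPM, 3 of the 9 tested genes had groups that did not overlap, *CDKN1C* and *OSBPL5* above CN and *LOC110259223* below it, where 28.3% of all genes tested had such groups. At the level of single transcripts, 21 of the 36 domain transcripts passed the filter. By adjusted p edgeR called 0 of them, where 0.258% of the 3487 transcripts tested were called. An unadjusted p below 0.05 was reached by 5, and the share of all transcripts at that level was not counted. Nothing is read from these counts either. Both transcripts of *LOC110259223* had low values in PA, with log2 fold changes of −7.00 ± 1.17 and −8.81 ± 1.03 (SE).

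**Figure D3:**
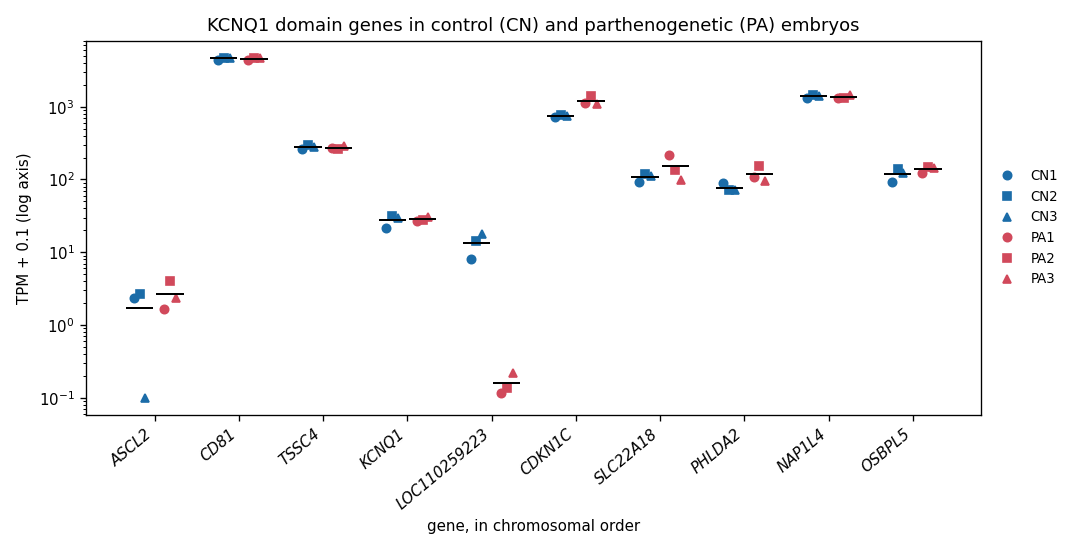
TPM plus 0.1 on a log axis for the 10 genes in chromosomal order, in CN (blue) and PA (red) embryos, where the circle, square and triangle are replicates 1, 2 and 3 and the line is the group mean. LOC110259223 has 7.87 to 17.9 TPM in CN and at most 0.119 in PA, CDKN1C is higher in all PA embryos, and the CN3 point of ASCL2 is at 0 TPM.

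Levels of the domain genes in TPM, on the scale of these tables and not of a whole transcriptome, spanned a wide range. In CN the order was *CD81* at 4613 ± 146, *NAP1L4* at 1393 ± 58.6, *CDKN1C* at 753 ± 27.4 and *TSSC4* at 279.9 ± 16.9 (mean ± SD, n = 3). *OSBPL5* at 118 ± 23.6 and *SLC22A18* at 107 ± 13.0 followed, and their values overlapped. *PHLDA2* at 77.4 ± 11.12, *KCNQ1* at 27.7 ± 5.43, *LOC110259223* at 13.4 ± 5.10 and *ASCL2* at 1.60 ± 1.40 came last, each below the range of the gene before it.

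In PA, *CD81* again led at 4537 ± 121. *CDKN1C* at 1197 ± 167 reached the range of *NAP1L4* at 1368 ± 83.9, from which it was separate in CN. *SLC22A18* at 152 ± 60.7, *OSBPL5* at 138 ± 12.4 and *PHLDA2* at 119 ± 29.7 overlapped one another. *KCNQ1* was at 28.2 ± 1.57, and *LOC110259223* at 0.0583 ± 0.0537 was the lowest, below *ASCL2* at 2.58 ± 1.19.

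**Figure D4:**
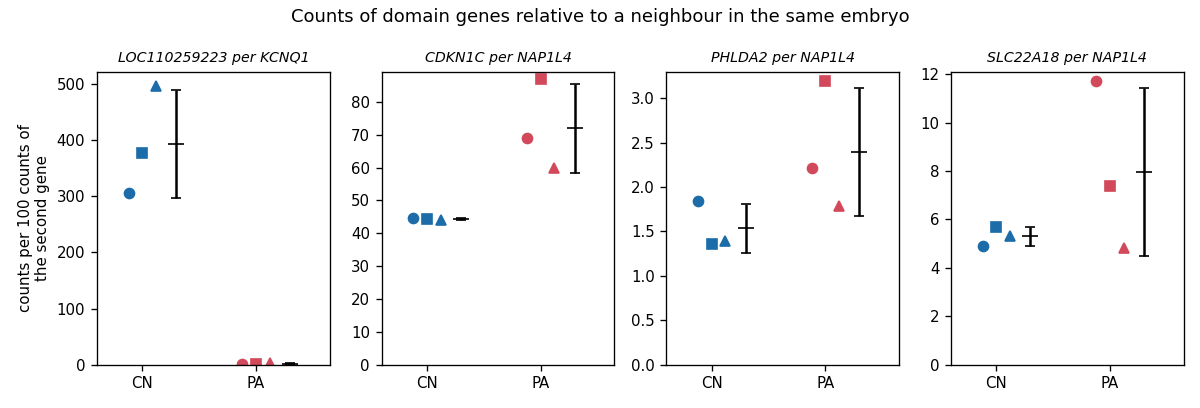
Counts of 4 domain genes per 100 counts of a second gene of the same embryo, KCNQ1 or NAP1L4, in CN (blue) and PA (red), with the circle, square and triangle for replicates 1, 2 and 3 and the bar for mean ± SD. LOC110259223 per KCNQ1 is at least 307 in CN and at most 3.26 in PA, CDKN1C per NAP1L4 is 43.9 to 44.5 in CN and 60.0 to 86.9 in PA, and PHLDA2 and SLC22A18 overlap between groups.

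The other genes of the region entered by their position around the domain and were tested. The study had already reported *IGF2*, *MRPL23*, *INS* and *TH* in these same embryos, so their p-values are no fresh evidence. In the domain and 250 kb on each side the annotation had 25 other genes. Of these, 15 passed the filter and 10 did not, with at most 6 counts in any embryo. *H19* and *IGF2-AS*, which the study places in this window, are not in that annotation and are not counted. The study reports that *H19* tended to be higher and that *IGF2-AS* was lower in PA. With edgeR and Benjamini-Hochberg adjustment over all 1652 genes, 2 of the 15 passed the threshold, both lower in PA, where 6.54% of all genes tested passed it. *IGF2*, the paternally expressed fetal growth factor, fell from 107184, 113052 and 126288 counts in CN to 3265, 4719 and 2351 in PA. Its log2 fold change was −5.41 ± 0.29 (SE), with an adjusted p of 4.18e-05.

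*NADSYN1*, which makes the last step of NAD synthesis, had 818, 716 and 795 counts in CN and 621, 416 and 453 in PA. Every PA embryo was lower than every CN embryo. Its log2 fold change was −0.69 ± 0.17 (SE), with an adjusted p of 0.0478. The call was lost without any single one of CN1, CN2, CN3, PA2 or PA3, with edgeR adjusted p from 0.106 to 0.163 and log2 fold changes from −0.73 to −0.58 in those fits. It was also lost when at least 10 counts were required in every embryo (adjusted p 0.0501) and when *IGF2* and the transcript taken as *H19* were left out before scaling (0.0532), with log2 fold changes of −0.69 and −0.68. On log2(TPM + 0.1), permuting the embryos between groups (exact, two-sided) gave a p of 0.1, the smallest that 3 against 3 allow.

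The genes between *ASCL2* and *KCNQ1* that are not of the domain did not pass. *TRPM5*, a cation channel of taste cells, had 79, 68 and 61 counts in CN and 44, 35 and 46 in PA, with a log2 fold change of −0.81 ± 0.22 (SE) and an edgeR adjusted p of 0.0702. *TSPAN32*, a tetraspanin of blood cells, had a log2 fold change of −0.46 and *LOC110259220* one of −0.33. In all 3 the normalised CPM of every PA embryo was below that of every CN embryo, as groups did not overlap in 28.3% of all genes tested. In TPM the groups overlapped for *TSPAN32* and *LOC110259220* and not for *TRPM5*.

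On the far side, *CARS*, a cysteinyl-tRNA synthetase gene between *NAP1L4* and *OSBPL5*, had a log2 fold change of 0.15 ± 0.07 (SE) and an edgeR adjusted p of 0.279. Its neighbours *LOC100627067* and *LOC102158193* had log2 fold changes of −0.40 and 1.02, but their counts were not whole and reads could be divided between them, which makes both values uncertain. With 1 embryo left out they ranged from −0.63 to −0.17 and from 0.59 to 1.45. *LOC102159152*, *LOC106509286* and *DHCR7*, a cholesterol synthesis enzyme, had values between −0.05 and 0.02.

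Upstream, near *IGF2*, *TH*, the first enzyme of catecholamine synthesis, had 105, 106 and 126 counts in CN and 173, 207 and 142 in PA. Its log2 fold change was 0.59 ± 0.20 (SE) and its edgeR adjusted p was 0.128. *INS*, *MRPL23* and *TNNT3* had log2 fold changes of −0.08, −0.19 and −0.75, none of them past the threshold. None of these 4 genes passed, and *TH* was the one in which every PA embryo was above every CN embryo.

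**Figure D5:**
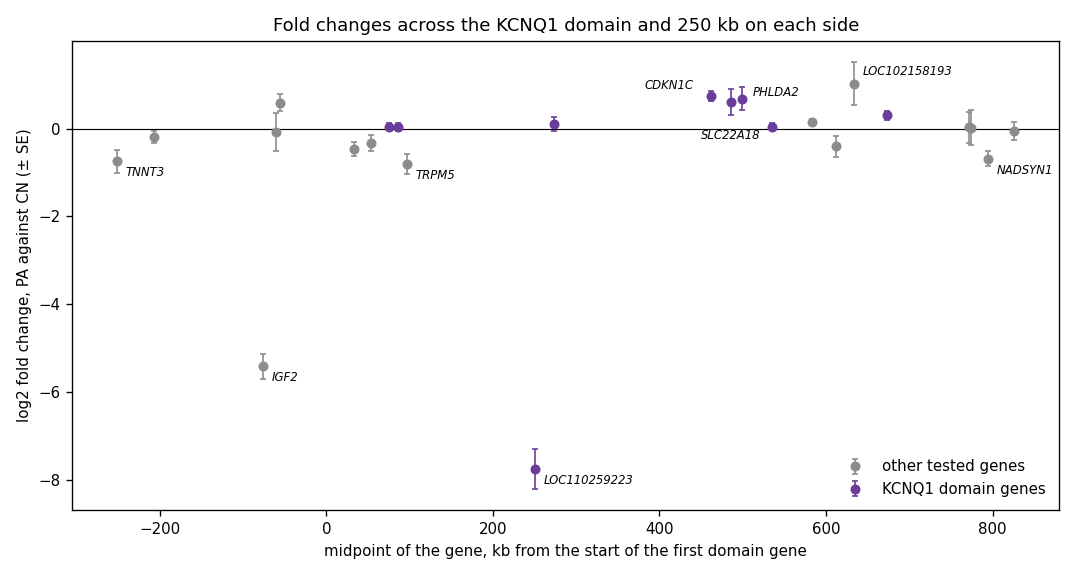
Log2 fold change, PA against CN, with SE (bars), of the 9 tested domain genes (purple) and the 15 other tested genes (grey) by the distance in kb of the gene's midpoint from the start of ASCL2. IGF2 at −5.41 and LOC110259223 at −7.74 stand far below the rest, and the other genes lie between −0.81 and 1.02. H19 and IGF2-AS, which the annotation lacks, are not shown.

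Genes with functions related to those of the domain were counted in fixed lists, of which almost only the chromosome 2 members had counts. Of 23 cell cycle regulators acting with *CDKN1C*, 5 passed the filter and both edgeR and DESeq2 called 0, with 1 at an unadjusted p below 0.05, where 349 of all 1652 genes were. *CCND1*, *CCNH* and *CDKN2D*, the 3 with the highest TPM, had log2 fold changes of 0.16, 0.17 and −0.11. The median over the 5 genes was −0.11, against 0.02 over all genes, while *CDKN1C* itself had 0.74.

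Of 15 other potassium channel genes, 6 passed the filter and both edgeR and DESeq2 called 0, with 2 at an unadjusted p below 0.05. *KCNN1*, *KCNN2* and *KCNJ11* had log2 fold changes of 0.16, −0.32 and −0.11. The median was 0.03, close to that of all genes, but the values ran from −0.45 to 0.91. Both genes at an edgeR unadjusted p below 0.05 were higher in PA, where 349 of all 1652 genes were at that level. Of 9 tetraspanins beside *CD81*, 5 passed and edgeR called 0, with 3 at an unadjusted p below 0.05 (349 of the 1652 genes overall) and a median of −0.25. DESeq2 called 1 of them, *TSPAN4*, which had a log2 fold change of −0.40 and an edgeR adjusted p of 0.0578. *CD151*, *CD82* and *TSPAN18* had log2 fold changes of −0.25, −0.19 and 0.20. Of 8 oxysterol-binding protein genes beside *OSBPL5* only *OSBP* passed, with −0.06, and neither tool called it (0 at an unadjusted p below 0.05).

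Of 25 other genes reported as imprinted in mouse or human, 9 passed the filter, 0 were higher and 2 were lower in PA by edgeR and by DESeq2, where 6.54% of all genes tested were called by edgeR. By edgeR 6 of the 9 had an unadjusted p below 0.05, where 349 of all 1652 genes had, and the median log2 fold change was −0.46. The 2 lower genes were *IGF2* and *WT1*, a transcription factor of kidney and gonad development, which had a log2 fold change of −0.47 ± 0.09 (SE) and an adjusted p of 0.0217. *MRPL23*, a mitochondrial ribosomal protein gene with the next highest TPM, was at −0.19. Several genes of this list lie in the same window and are also counted above.

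Markers of tissues in the embryo were also counted, in lists chosen with earlier results of these data known and with genes named after their values were seen, so the p-values are no independent evidence of a tissue difference. The neural markers *PAX6* and *SYT13* were higher in PA, with log2 fold changes of 0.84 ± 0.09 and 0.70 ± 0.09 (SE) and edgeR adjusted p of 0.0016 and 0.00243. They are the 2 of 5 neural markers that passed the filter, where 6.54% of all genes tested were called, and the summed CPM of the list was 273 to 299 in CN and 472 to 496 in PA. Of 6 skeletal muscle markers, 4 passed the filter and edgeR called 1, *TNNI2*, lower in PA, with a log2 fold change of −1.34 ± 0.15 (SE) and an adjusted p of 0.00169. All 4 had an unadjusted p below 0.05, as had 349 of the 1652 genes, and a negative log2 fold change, *TNNT3* of −0.75, *CSRP3* of −0.58 and *MYOD1* of −0.43, and DESeq2 called *CSRP3* as well. The summed CPM of that list was 354 to 458 in CN and 234 to 258 in PA. *NES*, *SOX2*, *MYF5* and *MYOG* are on other chromosomes and listed at 0.

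In the remaining marker lists edgeR called 0 genes and DESeq2 called 1, *KLF1*, an erythroid factor with a log2 fold change of −0.74, where DESeq2 called 173 of all 1652 genes. Of 7 erythroid markers 3 passed the filter, with summed CPM of 355 to 529 in CN and 293 to 343 in PA and 2 genes at an unadjusted p below 0.05, as were 349 of all 1652. For macrophage markers 3 of 4 passed, with 254 to 405 in CN and 258 to 333 in PA, and for early liver 3 of 5, each with 0 at an unadjusted p below 0.05. Of 12 trophoblast markers 1 passed and had an unadjusted p above 0.05, with 5.19 to 12.1 in CN and 8.38 to 16.2 in PA. The part of tissue makeup in the values of *CDKN1C*, *LOC110259223* and the other domain genes was not tested.

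Genes were also ranked by how closely their pattern over the 6 embryos followed that of a domain gene, as the mean absolute difference of log2 CPM after each gene was centred and scaled to unit SD. For *LOC110259223* the nearest were *OVOL1*, *TBXA2R* and *SOWAHA*, at 0.098, 0.107 and 0.108 SD, where the median over all genes was 1.12. For *CDKN1C* the nearest were *ELL2*, *CPLX2* and *DNASE2*, at 0.0729, 0.117 and 0.122 SD, with a median of 1.04. The measure takes no account of the size of a change. A gene whose groups are clearly apart comes near *LOC110259223* by that alone, and 28.3% of all genes tested had groups without overlap. The ranking thus repeats the difference between groups, and no shared regulation is read from it. *OVOL1* had 30.7 to 36.3 normalised CPM in CN and 9.89 to 10.7 in PA, a far smaller change than that of *LOC110259223*. *ELL2* had 224 to 253 in CN and 316 to 452 in PA, and like *CDKN1C* was highest in PA2.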

How the data were processed

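RNA of 3 CN and 3 PA embryos was measured, and the domain genes and gene lists were chosen with earlier results of these data known. Per the study's methods, libraries were made from polyA-selected RNA with an Illumina TruSeq kit (version 2), and the authors quantified reads with Salmon 1.3.0 against the pig transcriptome. That kit is generally known not to mark strand, which the methods do not state. The authors deposited estimated counts and effective lengths for each of 81496 transcripts per embryo, and TPM values that Salmon scales to a common sum. Per the submitters' processing notes, STAR 2.7.5 and build Sscrofa11.1 were also used, and the transcriptome's source is not given in the sources used here.

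Transcripts were joined to genes by NCBI Annotation Release 106 of Sscrofa11.1, which lacks 174 of them. Of the transcripts, 6904 lie on chromosome 2. Estimated counts were summed per gene, rounded and tested with edgeR 4.0.16 (quasi-likelihood, TMM factors, length offset) under R 4.3.3, after a filter at a minimum count of 10 that kept 1652 genes. Benjamini-Hochberg adjusted p below 0.05 was called, with a log2 fold change beyond 1 as a second criterion. Normalised CPM divide counts by the TMM-scaled library total and by the length offset. That offset is the gene's average transcript length in an embryo relative to its geometric mean over all embryos. A count of 0 allows up to 3 counts, which are 0.839 to 0.968 CPM in these embryos, and such limits cover counting error only.

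Embryos were grouped by their labels. Within groups, counts of embryo pairs differed by a chi-square of 5.81 to 95.5 per degree of freedom, so all 6 embryos were counted as separate samples. The sharing of gilts was not modelled. Genes named were all 10 domain genes, all tested genes within 250 kb, the 3 with the highest TPM and all called genes of each functional list, and the 3 nearest in pattern to *LOC110259223* and *CDKN1C*. *TSPAN4* and the genes named from the tissue marker lists were named after their values were seen. Alternatives were DESeq2 1.42.0, library totals, no length offset, no filter, at least 10 counts in every embryo, a replicate block, other TPM settings and each embryo left out. Leaving out *IGF2* and the transcript taken as *H19* before scaling was chosen after seeing the data. The edgeR fit was tested on simulated counts, with the length offset left out.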

Additional observations from a re-analysis of the deposited data

How the results depend on the processing

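Of 494 values recomputed for 49 results, 446 kept their direction and side of the threshold or moved by less than the replicate spread, 22 moved further, 9 fell short of the threshold, 2 came to pass it and 15 fold changes changed sign. Some TPM differences near 0, of *KCNQ1*, *TSSC4*, *NAP1L4* and *CD81*, also changed sign within that spread. Genes called by adjusted p were 108 in the reported fit, 173 with DESeq2, 196 with no filter on low counts and 48 to 128 with 1 embryo left out (48 without CN2, 54 without CN3, 58 without PA2 and 70 without PA3). With the fold criterion they were 48, 77 with no filter and 34 to 52 with 1 embryo left out. Of the domain genes, 2 were called, but 1 with at least 10 counts required in every embryo, which removes *LOC110259223*, and 1 to 2 with 1 embryo left out (*CDKN1C* was lost without CN2 or CN3). Of the neighbours, 2 were called, 4 with no filter (*TNNT3* and *LOC102158193* were added), 1 with at least 10 counts in every embryo, 0 without *IGF2* and the transcript taken as *H19*, where *IGF2* is removed by construction and *NADSYN1* has an edgeR adjusted p of 0.0532, and 1 to 2 with 1 embryo left out. The cause of the other changes was not tested. Signs changed with library totals for *CD81* (−0.018), *TSSC4* (−0.023), *NAP1L4* (−0.020), *LOC102159152* (−0.034) and *LOC106509286* (−0.033), in log2 fold change. With 1 embryo left out they changed for *TSSC4* (−0.0011 to 0.075), *INS* (−0.57 to 0.34), *LOC102159152* (−0.20 to 0.28), *LOC106509286* (−0.33 to 0.23) and *DHCR7* (−0.30 to 0.099). The median over all genes moved by less than 0.1 in log2 under every scaling.

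The labels give both groups the same replicate numbers, but the embryos are different ones. Deviations from the group means correlated at 0.225, 0.112 and 0.0267 between same-numbered embryos. PA1 and PA2 correlated best with the CN embryo of their own number, and PA3 with CN2, at 0.153. Whether same-numbered embryos shared any handling was not tested. With the replicate number as a block, 106 genes were called, with log2 fold changes of 0.73 for *CDKN1C*, −7.77 for *LOC110259223* and 0.50 for *SLC22A18*. The block changed no call of a domain gene or neighbour.

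With 3 embryos per group, no test of a single value by permutation can go below a p of 0.1. Genes with few counts, *ASCL2* and *LOC110259223* in PA, are limited by counting.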
